A study of Mus musculus with 2 samples.

Results

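Tightly clustered CTCF peaks were examined in liver of newborn mice. They are autosomal peaks of the optimal list that had at least 3 other summits of that list within 5 kb on either side. The rule selected 2029 of 55759 peaks on chromosomes 1 to 19, or 3.64%, out of 57220 peaks in the whole list. Members within 5 kb of each other were joined, which gave 780 clusters. All samples came from 1 group, postnatal day 0 liver of the mouse strain B6NCrl with no treatment, assayed by ChIP-seq with an antibody against CTCF in 2 replicates. Per the labels the material was pulverized liver pooled over several dissections, and the 2 replicates share a biosample label and a donor label, so differences between them may be technical only. Sex was not collected, and the control experiment that the labels name was not analysed here. No read counts were used, so the depth of the libraries is unknown.

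CTCF binds DNA through a row of zinc fingers, and the motif it reads has a direction. Cohesin, a ring-shaped complex that extrudes loops of chromatin, is halted at bound CTCF sites, most often where the motifs of the 2 loop ends point towards each other. Several sites in a row are known from domain borders, from imprinting control regions and from the ends of gene arrays such as the immunoglobulin heavy chain locus. The liver of a newborn holds hepatocytes beside blood-forming cells, and a peak does not tell which cell type was bound.

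The sequences under the peaks show what the clusters consist of. Each run below is read from GRCm38, 5′ to 3′ on the strand of the match, and the capitals mark the 14 bases that matched the CTCF core consensus best within 50 bp of the summit. A match with at most 2 mismatches is called a core below. The cluster with the most members and the highest summed signal lay on chromosome 12, and its 10 runs are shown because every one of the single best matches read forward. The second run was 1 of 2 equal best matches, and the ninth had 3 mismatches and so was not counted as a core.
Igh 3′ member 1, chr12:113216110-113216139: tggagaggCCACCAGGGGGTGCacaagcac
Igh 3′ member 2, chr12:113217454-113217483: gcaattggACACTAGGGGGCATttaagctc
Igh 3′ member 3, chr12:113218078-113218107: tctactgaCCACACGGTGGCAGcagagcgc
Igh 3′ member 4, chr12:113220045-113220074: gcatctagCCACCAGGGGGCACatgagctc
Igh 3′ member 5, chr12:113220668-113220697: gtgcaattCTACCAGAGGCCACatgaggcc
Igh 3′ member 6, chr12:113221400-113221429: gcatctgtCCACCAGGGGGCACctgagcac
Igh 3′ member 7, chr12:113222208-113222237: accaatggCCACATGGTGGCAGcagagatc
Igh 3′ member 8, chr12:113222473-113222502: acacatggTCACCAGGGGGCGCacgagccc
Igh 3′ member 9, chr12:113222945-113222974: ggctatgcTCACACGGGGGCAGcagagttt
Igh 3′ member 10, chr12:113224388-113224417: cacccagtCCTCTAGAGGGAGCccctgagc

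The runs within this array resembled each other in part. Each run was placed at its best match to the same consensus, so part of this likeness follows from the choice. No expected likeness was computed. Members 4 and 6 shared all 14 core bases and 26 of 30 positions, members 3 and 7 shared 23 positions, and members 2 and 4 shared 22. Of the 45 pairs, 9 shared at least 20 positions, and the median pair shared 17. The wider sequence was compared without regard to the consensus, by the 12-base words around the summits. By that measure none of the 45 pairs shared at least 20%, and the most alike pair shared 5.26%. In the 7-member cluster inside 2900026A02Rik on chromosome 5, shown because each of its peaks carried a core, no pair of 21 shared 20 positions and the median was 14. Of those 7 cores, 6 lay on the reverse strand and the sixth in order lay on the forward strand.
2900026A02Rik member 1, chr5:113167273-113167302: ccctgtacACAGTAGGGGGCAGcatccagt
2900026A02Rik member 2, chr5:113167907-113167936: agaaacgaCCACCAGGGGGCAGggtggagg
2900026A02Rik member 3, chr5:113170226-113170255: tgaagaggCCAGCAGAGGGTGCcaaagcct
2900026A02Rik member 4, chr5:113173496-113173525: ggaagcagCCACTAGGGGGCAGcagtgccc
2900026A02Rik member 5, chr5:113175082-113175111: ggtttctgGCACTAGGTGGCGCtgcaaccc
2900026A02Rik member 6, chr5:113175522-113175551: cagaccagCCTCTAGGGGGCAGgttgcctg
2900026A02Rik member 7, chr5:113176204-113176233: caggagatGCAGCAGGGGGCAGtgtgtgag

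The 4 peaks upstream of H19, an imprinted long noncoding RNA gene, are shown because none of them passed as a core. Their best matches had 3, 3, 4 and 3 mismatches. For members 1, 3 and 4 the run is 1 of 2 equal best matches. In members 1 and 4 the other match lay on the forward strand and the reverse one was taken. The common strand and the likeness of the printed runs thus follow in part from this choice. Both tied matches of member 3 lay on the reverse strand, and the one at the higher coordinate is shown, chosen after its letters were seen.
H19 member 1, chr7:142580301-142580330: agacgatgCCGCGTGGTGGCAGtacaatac
H19 member 2, chr7:142580756-142580785: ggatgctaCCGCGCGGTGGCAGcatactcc
H19 member 3, chr7:142581782-142581811: cagggttgCCGCACGGCGGCAGtgaagtct
H19 member 4, chr7:142582026-142582055: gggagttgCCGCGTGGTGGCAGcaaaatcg

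The clusters were small and short. A single member made up 279 clusters, a peak with at least 3 near summits whose neighbours each had fewer. A further 163 clusters held 2 members, 52 held 3 and 199 held 4. Only 87 clusters were larger, with 61 of 5 members, 20 of 6, 4 of 7, 1 of 9 and 1 of 10. The 286 clusters of 4 or more members held 1268 peaks, and the distance between their outer summits had a median of 4480 bp (quartiles 3613.5 and 4977 bp). Neighbouring members lay a median of 1168 bp apart over 1249 gaps (quartiles 683 and 2025 bp). Another 1456 peaks lay within 5 kb of a member without being members.

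**Figure D1:**
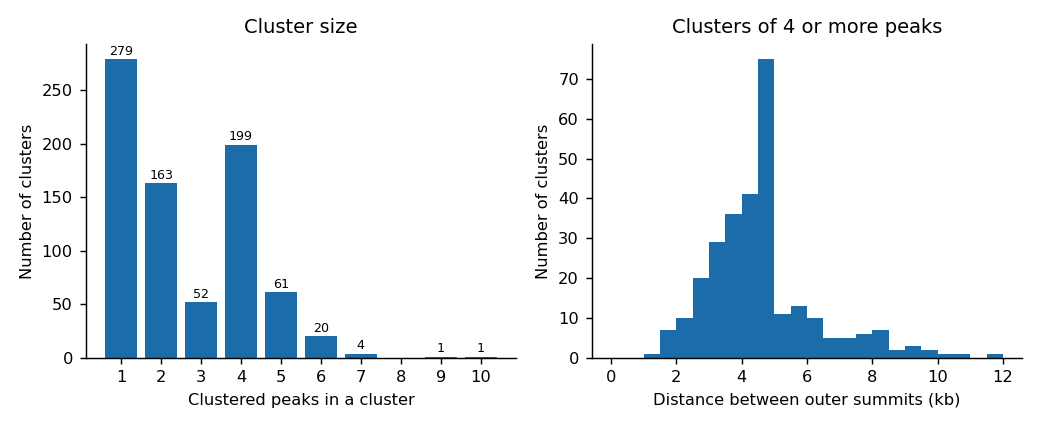
Left, the number of clusters (vertical axis) by the number of clustered peaks they hold; right, the distance in kb between the outer summits of the 286 clusters of 4 or more peaks, in bins of equal width. The left panel has 1 peak at 279 single-member clusters and 1 at 199 clusters of 4, and the right panel shows most clusters at or below the 5 kb of the rule, with a tail to 11738 bp between outer summits.

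The shortest gap was 199 bp, and 87 gaps, 6.97%, were under 300 bp. Of the clustered peaks 179, or 8.82%, had another summit less than 300 bp away, against 820 of the other autosomal peaks, or 1.53%. The rule itself selects peaks with near summits, and 32024 of the other peaks had none within 5 kb. This gap therefore describes the selection. In 80 neighbouring pairs the deposited intervals overlapped. Several of the close summits were weak beside their neighbour. At Comtd1 a summit with a signal of 5.04 lay in an interval that overlapped one with 19.7, and at Atp6v1g2 a summit with 4.99 was matched in neither replicate list. Signal is the value the authors deposited for each peak, on a scale that is not stated, and serves here to describe and rank peaks within a list.

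Clusters were unevenly spread over the chromosomes. Clustered peaks made up 5.64% of the peaks of chromosome 17, 5.54% of chromosome 11, 5.36% of chromosome 19 and 5.26% of chromosome 5. Chromosome 1 had the lowest share, 2.06%. By length, chromosome 11 held most, with 243 clustered peaks or 1.99 per Mb, and chromosome 3 the fewest, with 61 or 0.381 per Mb. The list held 4383 peaks over 122.1 Mb on chromosome 11, and 2689 over 160.0 Mb on chromosome 3. The rule asks for near summits, and the spread was not separated from the density of all peaks. Clustered peaks also lay nearer to genes. Their median distance to a transcript start was 2392 bp, against 6186 bp for the other autosomal peaks, and the median GC content within 250 bp of the summit was 50.7% against 47.1%.

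Clustered peaks lay at promoters more often than the other peaks. A summit within 1 kb of any GENCODE M21 transcript start was called a promoter peak, which held for 646 clustered peaks, where 20.7% of all autosomal peaks qualified. The share was 31.8% of clustered peaks (exact Clopper-Pearson 95% interval 29.8 to 33.9), against 20.2% of the other peaks (19.9 to 20.6). These intervals cover counting error over peaks only, and neighbouring peaks are not independent. The share climbed with the number of other summits within 5 kb, with 17.0% at 0, 23.8% at 1, 28.7% at 2, 31.5% at 3 and 33.7% at 4, and was 29.9% (21.02 to 40.04) at 5 or more. The intervals at 2 and more other summits overlapped. Of the clustered peaks, 7.29% lay in exons beyond promoters, 31.0% in introns and 29.9% between genes, against 5.15%, 41.0% and 33.6% of the other peaks. CpG-rich sequence surrounded 331 clustered peaks, or 16.3%, against 9.46% of the others and 9.71% of all autosomal peaks. The summit lay in repeat-masked sequence in 437 clustered peaks, or 21.5%, against 22.5% of the others and 22.4% of all.

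The CTCF core was less frequent under clustered peaks. It was found in 1298 of them, where 71.2% of all autosomal peaks had it. The share was 64.0% of clustered peaks (61.8 to 66.1) against 71.4% of the other peaks (71.0 to 71.8). It was 73.4% at 0 other summits, 69.4% at 1, 66.1% at 2, 65.7% at 3, 58.4% at 4 and 59.8% (49.3 to 69.6) at 5 or more, and the intervals at 2 and 3 overlapped. In windows displaced by 1 kb a core stood in 6.21% of cases for clustered peaks (5.20 to 7.35), against 2.88% for the others. A displaced window can reach a neighbouring peak. At promoters 45.4% of clustered peaks (41.5 to 49.3) had a core against 52.8% of the others, and away from promoters 72.7% (70.2 to 75.003) against 76.2%.

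**Figure D2:**
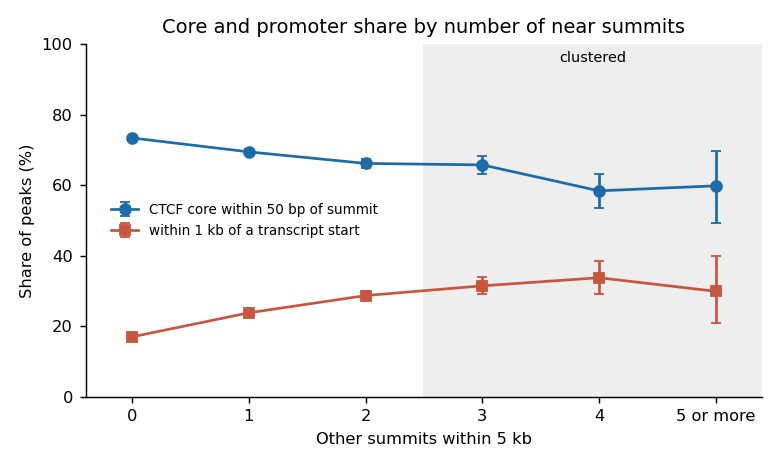
Share of autosomal peaks in percent (vertical axis) by the number of other summits within 5 kb (horizontal axis); circles mark peaks with a CTCF core within 50 bp of the summit, squares mark promoter peaks, and bars are exact 95% intervals over peaks. The grey field holds the clustered peaks. From 0 to 4 other summits the core share runs from 73.4% down to 58.4% and the promoter share from 17.0% up to 33.7%.

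Signal did not set clustered peaks apart in the middle of its range, but it was more spread. The median was 71.55 in clustered peaks and 71.53 in the other peaks, with quartiles of 27.4 and 212.9 against 30.5 and 186.0. The strongest 10% of the list held 13.7% of clustered peaks and 9.86% of the others, and the weakest 10% held 14.3% against 9.83%. Peaks with exactly 3 other summits, just inside the rule, had a median of 72.5 (4.34 to 701.8), and peaks with exactly 2, just outside it, had 77.4 (4.13 to 660.4). With a core the median was 129.5 in clustered peaks and 99.4 in the others, and without a core it was 29.5 and 35.8.

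The list was also split by signal into 5 groups of equal size, and clustered peaks held a lower share of cores and a higher share of promoter peaks in each. In the strongest group 88.8% of clustered peaks had a core (85.6 to 91.5), against 90.1% of the others (89.5 to 90.6). Core intervals overlapped in the 3 stronger groups and not in the 2 weaker ones. In the weakest group the shares were 32.1% (27.9 to 36.5) against 48.3% (47.4 to 49.3). The promoter share was 23.7% against 19.99% in the strongest group, with overlapping intervals, and 42.3% against 24.8% in the weakest.

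Both replicates held most of the clustered peaks. A summit of each whole replicate list, weak calls included, lay within 100 bp of 1885 of them, or 92.9% (91.7 to 94.0), against 97.2% of the other peaks and 97.1% of all autosomal peaks. The conservative list held a summit at exactly the same position for 1721, or 84.8%, against 87.9% of the others and 87.8% of all. The replicate lists went into the optimal list, and the conservative list was made from the same lists, so the shares describe the optimal list. The 144 clustered peaks that lacked a match in at least 1 replicate had a median signal of 9.43, against 85.4 for the matched ones. Of these, 67 were matched in replicate 1 alone, 55 in replicate 2 alone and 22 in neither. Across matched clustered peaks, which are not independent, Spearman's rho of the signals in replicates 1 and 2 was 0.966, against 0.962 in the others. Clusters rebuilt from the strongest peaks of each replicate list alone numbered 742 and 754 (748 ± 8.49, SD, n = 2), with a promoter share of 31.5% ± 1.76 and a core share of 65.1% ± 1.39 (SD, n = 2 each). Of the 2029 clustered peaks, 64.9% were members again in replicate 1 alone and 66.3% in replicate 2 alone.

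**Figure D3:**
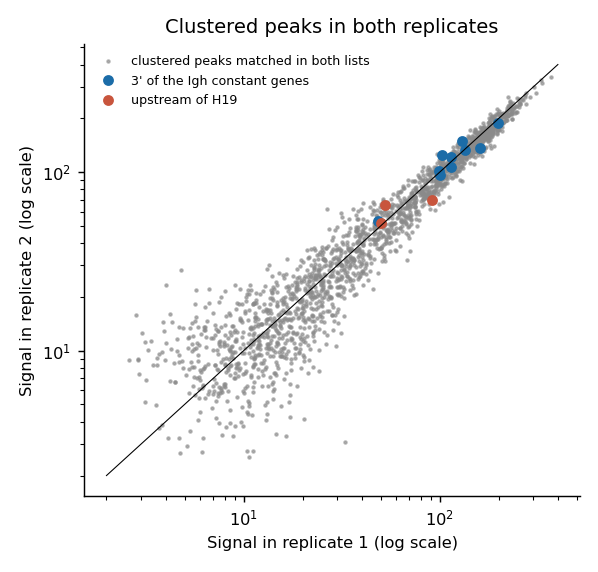
Signal of each clustered peak that both replicate lists held, in replicate 1 (horizontal, log scale) and replicate 2 (vertical, log scale), with the line of equal signal; larger points mark the clusters beside the Igh constant genes and upstream of H19. The 1885 points follow the line, with more scatter at low signal, and 3 of the 4 H19 peaks appear because the other was not matched in replicate 2.

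Members were ranked by signal within their cluster, so a fall along the ranks is fixed by the ordering, and only its size is described. In the 286 clusters of 4 or more members the strongest peak had a median signal of 290.1, the second 132.4, the third 52.4 and the weakest 19.4. The ratio of the strongest to the weakest had a median of 12.2 (quartiles 5.57 and 21.8). It was under 3 in 27 clusters and over 10 in 159, and the strongest peak held a median of 49.96% of the summed signal. The same peak was the strongest in both replicates in 258 of the 286 clusters, or 90.2%. It lay at an end of the cluster in 110 of the 199 clusters of 4, where 2 of the 4 places are ends.

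Cores followed this order. A core stood under 79.4% of the strongest peaks (74.2 to 83.9), 67.5% of the second, 56.99% of the third and 43.7% of the weakest (37.9 to 49.7). The strongest peaks were chosen by signal, and signal and cores go together throughout the list. The 142 peaks of each rank that lay between the quartiles of its signal were also set beside the other autosomal peaks in the same range of signal. Of the strongest, 85.2% (78.3 to 90.6) had a core against 88.6% of the other peaks, and of the second 64.1% (55.6 to 72.0) against 79.5%. Of the third, 54.9% (46.4 to 63.3) had one against 69.0% of the other peaks, and of the weakest 41.5% (33.3 to 50.1) against 53.2%. The promoter share was 32.5% in the strongest and 39.2% in the weakest, with overlapping intervals. All strongest peaks were matched in both replicates, and 73.8% of the weakest were.

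**Figure D4:**
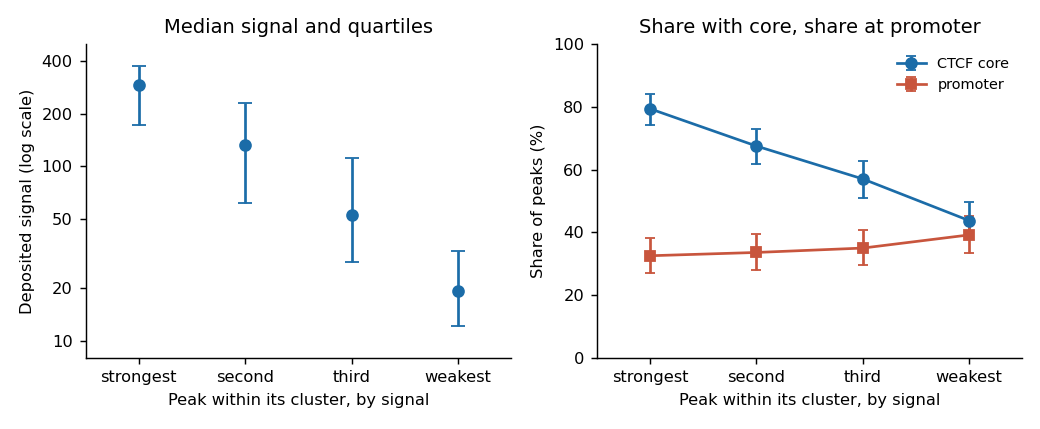
Left, median deposited signal (log scale, bars from the first to the third quartile) of the strongest, the second, the third and the weakest peak of the 286 clusters of 4 or more; right, the share of those peaks in percent with a CTCF core (circles) and at a promoter (squares), with exact 95% intervals. Signal falls from a median of 290.1 to 19.4 in this order, the core share from 79.4% to 43.7%, and the promoter share stays between 32.5% and 39.2%.

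The clusters fell into those that touched a promoter and those that did not. Of the 286, 186 (65.0%) had at least 1 promoter peak, 22 had promoter peaks only, 49 reached promoters of 2 or more genes, and 49 lay wholly between genes. Of all autosomal peaks 20.7% were promoter peaks, and a cluster of several peaks has several chances to hold one. The 65.0% was not set against an expected share, so it does not show an excess. In clusters with a promoter peak 53.5% of 826 members had a core (50.04 to 56.96), against 74.9% of 442 members (70.6 to 78.9) in clusters without one. At least 3 cores stood in 44.1% of the clusters with a promoter peak, against 77% of those without one. Only the first group holds promoter peaks, of which 45.4% had a core among clustered peaks, against 72.7% away from promoters. Both gaps thus restate that difference in part. The median summed signal was 495.7 with a promoter peak and 602.7 without, and the median ratio of strongest to weakest was 13.8 and 9.02. All members carried a core in 57 clusters and none did in 11.

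Core orientation in clusters was close to that of other neighbouring peaks. Of 466 neighbouring pairs of members with 1 best core each, 56.7% read on the same strand (52.0 to 61.2), against 54.7% of 5835 other pairs at most 5 kb apart (53.4 to 56.0). Convergent pairs made up 18.9% against 19.4%, and divergent pairs 24.5% against 25.9%. All intervals overlapped. Among clusters with at least 3 cores of known strand, 36 of 163 had all of them on 1 strand, and with at least 4 cores it was 11 of 71. Likeness of the wider sequence was rare. Of 2563 pairs of members, 2 shared at least 20% of the 12-base words around their summits, 1 at Abcb8 with 22.5% and 1 at Gm34248 and Gm43625 with 46.3%. Identical cores occurred in 11 of 335 clusters with at least 2 cores that each had a single best match.

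The 10-member array on chromosome 12 lay between genes, 26.5 kb beyond Tmem121 and 30.3 kb from the 3′ end of Igha, the outermost of the immunoglobulin heavy chain constant genes. This side of the locus is known in B cells for a row of CTCF sites beyond the 3′ enhancers. The nearest annotated start is that of Gm25622, a small nuclear RNA gene. In order along the chromosome the signals were 269.6, 235.3, 387.6, 297.7, 228.7, 220.8, 279.2, 98.0, 197.1 and 201.5, so all but the eighth were above 190. The strongest, member 3, had 198.9 in replicate 1 and 188.8 in replicate 2, and the weakest, member 8, had 48.3 and 53.1. Members 7 and 8 are 2 summits that share 1 deposited interval, 113222090 to 113222619. The summed signal was 2415.5, with 1201.4 in replicate 1 and 1211.8 in replicate 2, and the ratio of strongest to weakest was 3.96. Of the 9 cores, 8 had a single best match, and all of these were forward.

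Trmt1, Lyl1 and Nfix shared the 9-member cluster on chromosome 8, which ran from 84697799 to 84708020 with 9972 bp between its outer summits. Trmt1 encodes a tRNA methyltransferase, Lyl1 a transcription factor of blood-forming cells and Nfix a nuclear factor I protein. Here 6 peaks were promoter peaks, 2 at Trmt1 starts, 3 at Lyl1 starts and 1 at an Nfix start. Signals in order were 218.8, 286.8, 21.6, 142.3, 20.8, 13.9, 49.98, 367.6 and 11.7, so 4 peaks stood above 140 and the others at or under 50. The strongest, in an exon of Lyl1, had a perfect reverse core and a signal of 177.8 in replicate 1 and 190.1 in replicate 2. The second strongest, 754 bp from a Trmt1 start, had none, with 4 mismatches at best.

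The 7 peaks inside introns of 2900026A02Rik had signals of 23.6, 152.0, 108.2, 386.0, 237.9, 87.4 and 15.8 in order. The strongest was member 4, with a perfect reverse core, and both end members were the weakest. At Vgll4, which encodes a cofactor of TEAD transcription factors, 6 intronic peaks ran from 80.5 to 378.3, with 4 forward cores and no reverse one. Gm13055 on chromosome 4 had 6 cores in 6 peaks and signals of 28.1 to 498.5, the highest at the right end on a perfect forward core. Igf2bp1, which encodes a fetal RNA-binding protein, also held 6 cores in 6 peaks, but these were weak, with 11.3 to 53.1 in 5 peaks and 159.7 in the one nearest its start.

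Some promoter clusters among those with most members had strong peaks beside weak ones. This was not particular to them, as the median ratio of strongest to weakest was 9.02 in clusters without a promoter peak. At Clcn2, a chloride channel gene, and Polr2h, which encodes a subunit of the RNA polymerases, all 7 members were promoter peaks. Their signals in order were 139.3, 74.4, 16.6, 9.89, 41.5, 17.5 and 341.0, and the strongest, 65 bp from a Polr2h start, had no core. At Atp6v1g2, a proton pump subunit gene, and Ddx39b, an RNA helicase gene, a peak 37 bp from an Atp6v1g2 start had 516.8 and held 63.1% of the summed signal of 7 members. At Igfbp4, which encodes a binding protein of insulin-like growth factors, the strongest of 7 peaks had 283.9 and lay 1321 bp from a start. The next peaks to its right, at the promoter, had 149.4, 21.2 and 4.74, and the last 2 of these were each unmatched in 1 replicate.

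Other clusters had high summed signals. On chromosome 1, Ptma, the prothymosin alpha gene, had a 6-member cluster over and beyond its body with a summed signal of 1422.8, in peaks of 8.10 to 477.7, and a 4-member cluster to the left of it with 1274.5. The 4 peaks of that left cluster had 308.4, 255.5, 433.4 and 277.2, and the nearest lay 22385 bp from a Ptma start. At AC112949.1 on chromosome 17, an intergenic cluster whose nearest member lay 48910 bp from a start, 4 forward cores carried 375.4, 372.0, 242.4 and 228.0. Gm32585 on chromosome 5 had 5 cores in 5 peaks of 50.3 to 419.1 and a summed signal of 1460.6, the second highest of all clusters. A cluster that overlapped Slc29a1, a nucleoside transporter gene, had 383.1, 279.5, 346.7 and 195.6 on 4 cores of alternating strand. The nearest start to each of these peaks was that of Gm17080, and 3 of the 4 summits lay between genes. At Rtn2 and Fosb, 4 of 5 peaks had no core, and the signals of these 4 ran from 29.9 to 416.5.

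The most even cluster of 4 or more was at Sgk1, which encodes a kinase induced by glucocorticoids. Its 4 promoter peaks had 175.6, 169.1, 156.9 and 195.9, a ratio of 1.25, and only the last 2 had a core. The widest ratio was at Comtd1, with 128, where the strongest peak had 647.1 and the weakest 5.04. Comtd1 also held the third strongest clustered peak of all. The strongest, in an exon of Gdf15, a stress-induced hormone gene, had 701.8 (367.7 in replicate 1 and 338.8 in replicate 2) and was the only member of its cluster. The second, in an intron of Pink1, a mitochondrial kinase gene, had 654.9 (328.5 and 329.3). Their runs are shown because they are the highest signals, and each is 1 of 2 equal best matches, or 1 of 3 at Comtd1.
Gdf15, chr8:70629932-70629961: gctgcgtgCCGCCAGAGGGCAGcatagcca
Pink1, chr4:138319678-138319707: catgtgaaCCACTAGGTGGCGCctcagtca
Comtd1, chr14:21849039-21849068: acatctcgCCACCCGGTGGCTGcatgcgga

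Of 119 landmark genes, which included imprinted, Hox, protocadherin, globin and liver genes, 2 had a 5′ end within 5 kb of a clustered peak, H19 and Myc. That is 1.68%, where 2.21% of all autosomal protein-coding genes qualified, so the share was not above the background. Upstream of H19 lies a control region known for CTCF sites that are bound on the maternal allele, where the DNA is unmethylated. The alleles were not separated here. Its 4 clustered peaks lay 2159 to 3867 bp from a start, with signals of 117.2, 163.0, 103.3 and 12.2. The first 3 had 52.8, 91.3 and 49.9 in replicate 1 and 65.1, 69.5 and 52.0 in replicate 2, and the last had 14.7 in replicate 1 and no match in replicate 2. As the runs printed above show, the best matches miss the core consensus by more than the 2 mismatches allowed, so the absence of a core here says only that these letters were not met.

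At Myc, a growth-promoting transcription factor gene, 4 promoter peaks spanned 3700 bp. The nearest start to the first was that of Gm37947, at 134 bp, and the nearest to each of the others was a Myc start. In order they had 287.6, 30.4, 143.0 and 103.1, with 148.6, 13.8, 75.1 and 47.1 in replicate 1 and 139.5, 16.2, 68.2 and 57.4 in replicate 2. The order of the 4 was the same in both replicates. The first and the last had a forward core. The third, 21 bp from a Myc start in CpG-rich sequence, had none. The 2 runs with a core are shown because they flank the Myc starts.
Myc member 1, chr15:61983423-61983452: ctctgtggCCAGTAGAGGGCACacttactt
Myc member 4, chr15:61987117-61987146: gcctttctCCTTCAGGTGGCGCaaaacttt

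**Figure D5:**
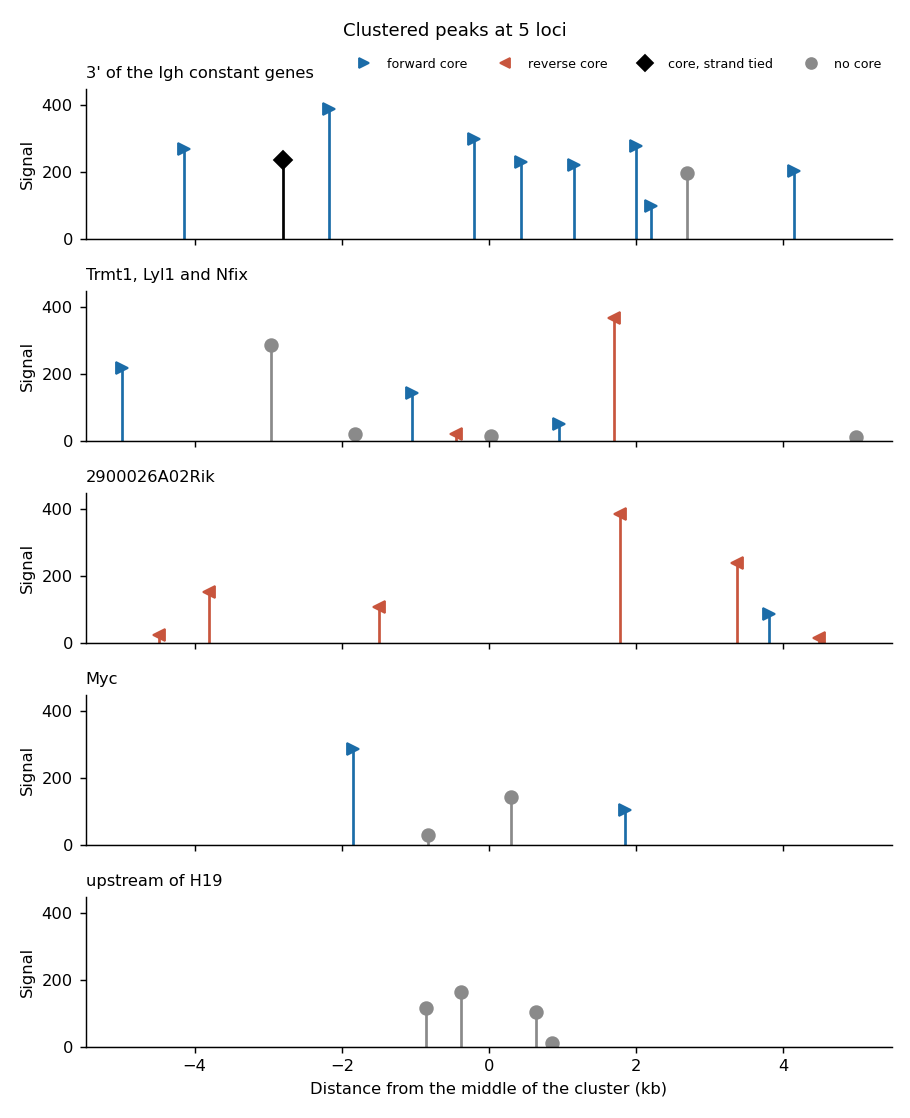
Clustered peaks at 5 loci by distance in kb from the middle of the cluster (horizontal) and deposited signal (vertical); arrowheads point along the strand of a core with a single best match, diamonds mark a core with tied best matches and circles mark peaks without a core. The array beside the Igh constant genes has 8 forward cores, 1 core with tied matches and 1 peak without a core, 2900026A02Rik has 6 reverse cores and 1 forward core, and the 4 peaks upstream of H19 have none.

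Among autosomal protein-coding genes, 460 of 20780, or 2.21%, had a 5′ end within 5 kb of a clustered peak. Of 79 cytosolic ribosomal protein genes, 10 did, or 12.7%, and 77.2% of that list had any peak within 5 kb against 48.9% of all protein-coding genes. At Rpl38 the 4 peaks had 87.8, 348.5, 90.9 and 187.1, the highest 34 bp from a start. At Rpl26 a peak 115 bp from the gene's start had 481.0. At Rpl8 the 2 peaks at its starts had 8.68 and 7.96, and the stronger peak of 195.7 lay 3982 bp away, so a near cluster did not mean strong binding at the start. Of 383 zinc finger genes 13 qualified, or 3.39%, among them Zfp746, with 86.1, 167.3, 35.8 and 36.1, and Zfp143, which encodes a promoter-binding factor, with 67.8, 14.8, 19.2 and 6.47. Of 67 histone genes 3 qualified, all beside 1 peak of 376.1.

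The lists of 39 Hox genes, 56 clustered protocadherin genes, 1127 olfactory receptor genes and 75 cytochrome P450 genes had no gene within 5 kb of a clustered peak. Any peak lay that near to 53.8%, 55.4%, 4.35% and 16% of them. Of 16 genes in a list of CTCF, cohesin and other factors only Zfp143 qualified, which is not a CTCF or cohesin gene and was also counted above. Of 30 imprinted genes only H19 qualified. Of marker genes of liver cell types, 1 of 10 hepatocyte genes qualified, Ass1 of the urea cycle, with a peak of 211.3 at 3919 bp. Of 4 stellate cell genes, Pdgfra qualified, with 122.6 at 3527 bp. None of 6 erythroid, 6 macrophage and granulocyte, 4 endothelial and 4 cholangiocyte genes did. Any peak lay within 5 kb of 50% of the hepatocyte, 66.7% of the erythroid and 50% of the macrophage and granulocyte genes. It was 50% of the endothelial, 75% of the stellate and 75% of the cholangiocyte genes. Of all autosomal protein-coding genes 2.21% lay near a clustered peak. At that share a list of 4 to 75 genes would hold few such genes or none. These are counts without a test, and genes of a family that lie side by side are not independent.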

How the data were processed

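CTCF ChIP-seq of newborn mouse liver gave 5 peak lists in narrowPeak format on mm10, per the labels. The authors deposited a signal and a summit offset for each peak, and the scale of the signal is not stated. Per the text deposited with the samples, each replicate has its own list, a pooled list was made from both, and the conservative and optimal lists were made from these by the irreproducible discovery rate. The aligner and the peak caller, their settings and versions were not given in the sources used here. All replicate and pooled lists end at 300000 peaks, so clusters of 1 replicate alone were rebuilt from its strongest peaks, as many as the optimal list holds, while summits were matched to the whole replicate lists. Replicate signals are on the scale of their own list.

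Clustered peaks were found in the optimal list on chromosomes 1 to 19 by the rule given above. Positions were set against GRCm38 and GENCODE M21. The 14-base CTCF core consensus was sought on both strands in the window of 50 bp on either side of a summit, and up to 2 mismatches were allowed. CpG-rich means, within 250 bp, a GC content of 50% or more with CpG at 0.6 or more of its expected frequency. Shares have exact Clopper-Pearson 95% intervals, which cover counting error over peaks only. With 1 group and 2 replicates no test was made. The members and gene lists were chosen with earlier results of these data known. Clusters were named as the 10 with most members, with the highest summed signal, with most cores and with most alike pairs, plus those near landmark genes. Sgk1, Gdf15 and Pink1 were named for extreme values, and genes of the lists were named after their values were seen. The finding of clusters and cores was tested on simulated data. Python 3.11.15, numpy 2.4.6, pandas 2.3.3, scipy 1.17.1 and matplotlib 3.10.9 were used.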

Additional observations from a re-analysis of the deposited data

How the results depend on the processing

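Alternatives changed the rule, the list or the definition of a feature 1 at a time, and 45 of 63 values were labelled moved. The label was given to a share or median that differed by at least the SD between the replicates, and to a count that differed by over 1.5 times. For the median signal that SD was 0.263, from replicate lists on another scale, beside a main median of 71.55. Almost any difference in the median was thus labelled moved, so the 45 says little on the size of the changes. With the conservative list the core share was 65.95%, the median signal 84.19 and the share matched in both replicates 93.44%. Of the clustered peaks of the optimal list 62.3% were members again there, and 65.9% of its clusters kept a member. With the stronger 27880 peaks alone 109 clusters of 244 peaks were left, with 21.72% at promoters, 83.61% with a core, 61.45% same-strand pairs and a median signal of 215.7. Neighbours within 3 kb gave 254 clusters of 594 peaks (38.72% at promoters, 56.4% with a core, median signal 61.03), and within 10 kb 2190 clusters of 7566 peaks (28.13%, 67.22%, 54.43% same-strand pairs, 79.22). At least 2 other summits gave 2820 clusters of 7567 peaks (29.54%, 65.56%, 54.45%, 76.21), and at least 4 gave 179 clusters of 503 peaks (58.65% with a core, median signal 69.49). Dropping summits within 300 bp of a stronger one gave 29.52% at promoters, 67.33% with a core and a median signal of 85.11. Promoter peaks were 21.69% within 500 bp of a start and 22.42% with gene 5′ ends only. The core share was 32.68% with 1 mismatch, 85.9% with 3 and 67.47% in a 100 bp window, and same-strand pairs were 62.58% with 1 mismatch. Summits matched in both replicates were 88.37% at 50 bp and 96.9% at 200 bp. Leaving out a replicate gave 742 to 754 clusters, 1956 to 1963 clustered peaks, 30.27 to 32.76% at promoters, 64.14 to 66.1% with a core, 54.3 to 56.03% same-strand pairs and a median signal of 38.8 to 39.17, on the scale of a replicate list.

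Under each change of list or rule, clustered peaks lay at promoters more often and had a core less often than the other peaks. With the stronger 27880 peaks these gaps were small, with 21.7% of 244 clustered peaks against 18.6% of the others at promoters, and 83.6% against 84.1% with a core. The cause was not tested. The median signal was lower in clustered than in other peaks at 3 kb (61.0 against 71.6) and at 4 others (69.5 against 71.6), and higher in the rest. No paired analysis was possible because the study has 1 group. Depth is unknown here and limits what can be said of weak peaks.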
